A study of Mus musculus with 32 samples.

Results

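In mouse photoreceptors, 150 protein-coding genes stood lower at CT10, late in the subjective day, than at any other sampled time in wild-type animals, by the rule that chose them. In animals mutant for the clock genes Per1 and Per2, edgeR's test called neither a member nor any of the 17317 genes tested lower at that time, while DESeq2 called 10 genes, 1 of them a member. The 150 genes were chosen by a rule on CPM, a gene's read count scaled to a common library total. A gene had to average at least 10 CPM over the 16 wild-type libraries, and its highest CT10 library had to lie below the lowest of the other 12. Of 8368 protein-coding genes at that level, 256 passed, after 13 genes had been left out by name, and the 150 with the smallest ratio of these 2 values were kept. With the named genes put back, 264 genes passed, which is 3.15% of those looked at. The wild-type libraries chose the members, so every wild-type value below, and every comparison of the mutant with wild type, is a description and was not tested. The mutant libraries played no part in the choice, and the tests were run on them alone.

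The study sequenced RNA from photoreceptors cut by laser capture out of snap-frozen eyes of male mice aged 6 weeks, on a C57BL/6/J x 129 SvEvBrd background. One genotype was wild type (WT), and the other, called KO here, was Per1-/-Per2Brdm1. The labels name no promoter or cell type that would limit the mutant alleles to photoreceptors. Eyes were taken at circadian times (CT) 19, 22, 1 and 10, counted in hours from subjective dawn, with 4 libraries in each of the 8 groups. The times were set around the daily peak at which the pigment epithelium engulfs shed tips of photoreceptor outer segments.

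The circadian clock is a feedback loop in which CLOCK and BMAL1 activate genes through E-box sequences, and PER and CRY proteins repress that activation. In photoreceptors the clock, light and dopamine from the inner retina together set daily changes of gene expression. Dopamine acts on photoreceptors through a receptor that lowers cyclic AMP, the messenger that activates protein kinase A. Genes with a cAMP response element respond to that kinase through CREB-family factors.

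Library totals ran from 23833604 to 34582742 counts, so 1 CPM rested on at least 23.8 counts, and no member had fewer than 124 counts in any library. The rod phototransduction list summed to between 110485 and 164411 CPM in every library, and no library stood out as poor in rod transcripts. Markers of other eye cells were present at lower levels. Lens markers were the most uneven, with group medians from 895 CPM in WT at CT22 to 6355 CPM in WT at CT1 and 4734 CPM in WT at CT10. In such bulk samples, fewer cells of a type and less RNA per cell cannot be told apart. Nothing but an animal number in the labels marks the replicates as separate animals.

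The CT10 trough of the members was moderate for most and deep for a few. The mean of the other 3 WT times over the CT10 mean had a median of 1.41-fold, from 1.17-fold for Osbp2, an oxysterol-binding protein gene, to 5.16-fold for Irf7. It was 2-fold or more for 9 members and smaller for 141. The rule ratio, highest CT10 library over lowest other library, ran from 0.523 to 0.961 with a median of 0.926, and 11 members had a ratio under 0.8. The last 3 genes inside the limit were Atf4, Shisal1 and Vps37b, all at 0.961. Just outside stood Egln2, Tbc1d13 and Tomm40, at 0.962 each.

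CT19 was the time of the highest WT mean for 106 members (70.7%, against 32.2% of the 8368 genes). It was CT22 for 32 members (21.3%, against 15.3%) and CT1 for 12 (8%, against 14.9%). CT10 was the highest WT time for 37.6% of the 8368 genes and, by the rule, for no member. The rule thus bears on the members' shares at the other times, which are a description only. The median of the members' log2(CPM + 0.5), each taken relative to the gene's own mean over all libraries, was -0.372 to -0.303 in the 4 WT CT10 libraries. In the other 12 WT libraries it was -0.089 to 0.229, with CT1 replicate 3 at the low end. The 4 WT CT10 libraries lay close together and apart from all others, as the choice of genes ensures. For KO the same median ran from -0.013 to 0.177 at CT19, from -0.035 to 0.127 at CT22, from -0.120 to -0.00156 at CT1 and, for CT10, from -0.148 to 0.025. The KO CT10 and CT1 ranges overlapped, and no KO library came as low as any WT CT10 library.

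**Figure D1:**
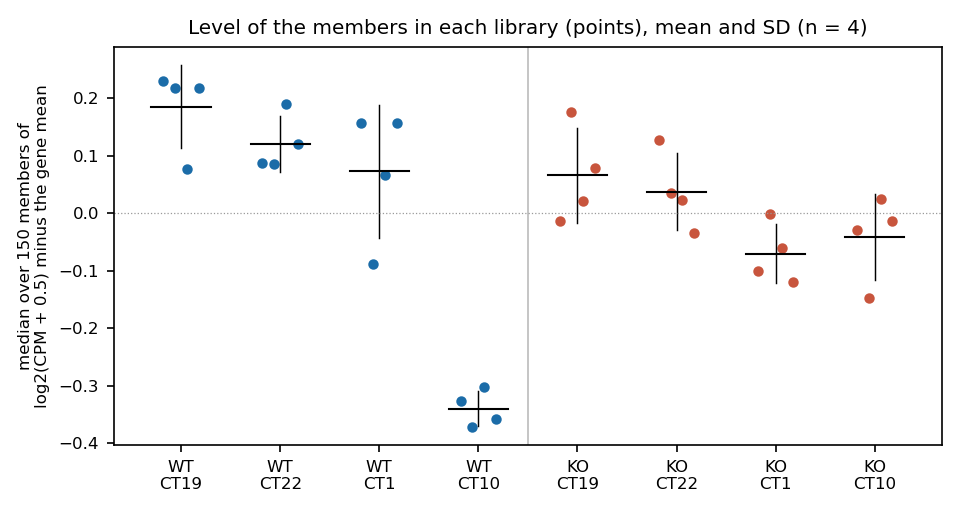
Median over the 150 members of log2(CPM + 0.5) minus each gene's mean over the 32 libraries, for each library (points) with the group mean and SD (n = 4). The 4 WT libraries at CT10 lie between -0.372 and -0.303, and the KO libraries lie between -0.148 and 0.177 at all 4 times.

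Irf7 (ENSMUSG00000025498, GRCm38 chr7:141262706-141266481, minus strand), a transcription factor of the interferon response, had the smallest ratio. The 4 WT CT10 libraries held 36.0, 22.8, 25 and 23.4 CPM, and the other 12 WT libraries held 68.8 at the lowest, 145 at the median and 177 at the highest. In KO the CT10 libraries held 82.3, 57.0, 87.8 and 102 CPM against 70.5, 100.2 and 167 in the other 12. Every KO CT10 library was thus above every WT CT10 library, and within KO the CT10 values overlapped those of the other times. The KO difference of CT10 from the mean of the other times was -0.38 on the log2 scale (SE 0.21; edgeR adjusted p = 0.631). Irf7 shares annotated exons with Phrf1 on the opposite strand, and the strand setting of the counting is not given in the sources used here, so its level is less certain.

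Aqp1 (ENSMUSG00000004655, chr6:55336432-55348555, plus strand) encodes a water channel. The CT10 libraries of WT held 292, 293, 227 and 308 CPM, and the means of the other WT groups were 600 ± 21.6 CPM at CT19, 566 ± 52.3 CPM at CT22 and 533 ± 59.2 CPM at CT1 (SD, n = 4 each). The KO libraries at CT10 held 407, 321, 431 and 413 CPM, against 324, 412 and 469 as the lowest, median and highest of the other 12. The KO level was flat over the 4 times, between the WT trough and the WT level at the other times. Plekhb1, which encodes a membrane-binding protein abundant in photoreceptors, had the highest mean WT CPM of the members, with no correction for length. Its WT means were 2164 ± 363, 2011 ± 126 and 1811 ± 271 CPM at CT19, CT22 and CT1, with 982, 912, 1099 and 924 CPM in the CT10 libraries. The KO means lay between 1446 ± 198 CPM at CT10 and 1558 ± 142 at CT22, and the KO groups overlapped.

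Dip2b (ENSMUSG00000023026, chr15:100038664-100219473, plus strand), a relative of the disco-interacting proteins, went the other way in KO. The WT CT10 libraries held 75.3, 70.7, 83.7 and 71.4 CPM, below the 112 to 158 CPM of the other 12. The KO CT10 libraries held 115, 127, 138 and 107 CPM, and the other 12 KO libraries ran from 79.6 to 119 with a median of 105. The KO difference was 0.26 (SE 0.10), the highest of any member, and did not pass the test (edgeR adjusted p = 0.482).

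**Figure D2:**
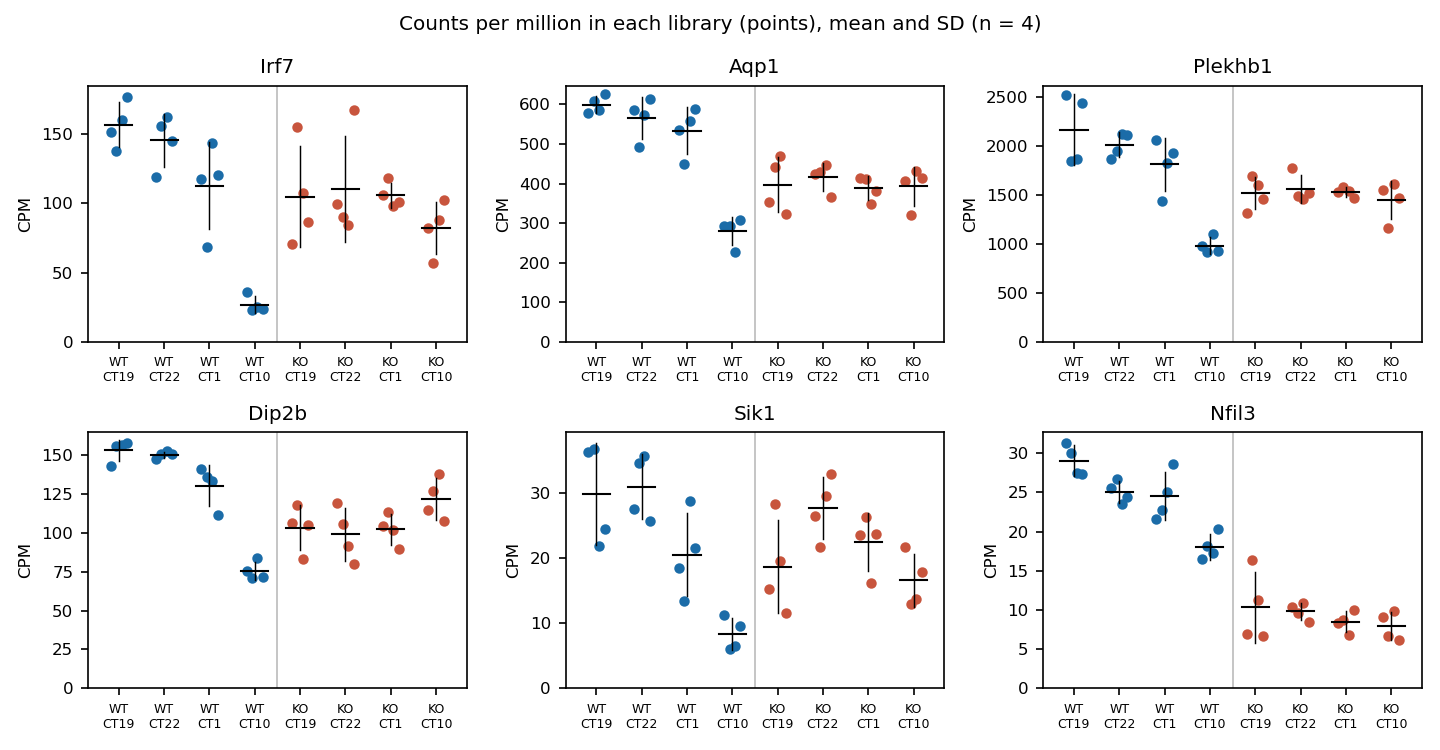
CPM of Irf7, Aqp1, Plekhb1, Dip2b, Sik1 and Nfil3 in each library (points) by genotype and circadian time, with the group mean and SD (n = 4); every vertical axis starts at 0. In each panel the WT points at CT10 lie below all other WT points, and in KO they overlap those of the other times.

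Promoter windows of 3 members are shown because each holds a sequence through which the clock or cAMP is known to act: Dip2b the E-box CACGTG, Mlf2 the full cAMP response element TGACGTCA, and Nfil3 the ROR element TAGGTCA. Dip2b and Mlf2 are the members of smallest ratio whose window holds the first and the second motif. Nfil3, a repressor of the clock's output loop, holds the third on the strand opposite to the gene, read here as TGACCTA. The windows are from RefSeq on GRCm38.p6, 300 bases each, 5′ to 3′ on the gene's strand, with the motif in capitals. They lie at chr15:100038414-100038713 (plus strand, motif at -16 from the annotated start), chr6:124931138-124931437 (plus strand, -9) and chr13:52980990-52981289 (minus strand, -12).
Dip2b: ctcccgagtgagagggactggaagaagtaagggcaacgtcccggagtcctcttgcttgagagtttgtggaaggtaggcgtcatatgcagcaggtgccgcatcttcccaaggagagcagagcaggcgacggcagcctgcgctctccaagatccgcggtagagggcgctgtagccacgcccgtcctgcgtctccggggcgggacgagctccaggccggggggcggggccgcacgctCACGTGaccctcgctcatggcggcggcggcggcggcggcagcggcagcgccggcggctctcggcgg
Mlf2: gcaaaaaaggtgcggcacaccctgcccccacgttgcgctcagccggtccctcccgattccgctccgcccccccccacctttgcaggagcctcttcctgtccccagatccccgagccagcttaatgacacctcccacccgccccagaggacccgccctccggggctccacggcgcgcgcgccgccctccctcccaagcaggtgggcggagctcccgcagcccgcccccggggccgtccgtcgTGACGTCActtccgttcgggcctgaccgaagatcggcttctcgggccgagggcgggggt
Nfil3: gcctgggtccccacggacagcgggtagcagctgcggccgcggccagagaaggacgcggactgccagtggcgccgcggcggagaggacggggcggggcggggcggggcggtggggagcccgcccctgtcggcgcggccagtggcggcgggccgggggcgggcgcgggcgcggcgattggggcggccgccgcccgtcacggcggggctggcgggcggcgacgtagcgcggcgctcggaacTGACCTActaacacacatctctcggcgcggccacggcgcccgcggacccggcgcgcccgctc

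A gene was counted once if any of its windows held a motif. Of the 121 members that had a RefSeq window, 16 (13.2%) held the E-box on either strand, against 12.6% of the 6724 genes that were eligible for the rule and had a window and 8.09% of all 27025 genes with a window. The full cAMP response element stood in 8 (6.61%), against 4.16% and 2.03%. Its first part TGACG, which the full element contains, stood in 47.9%, against 40.0% and 23%. The ROR element stood in 6 (4.96%), against 2.11% and 2.97%, the D-box (TTATGTAA or TTACGTAA) in 1 (0.826%), against 0.803% and 1.23%, and the OTX/CRX site TAATCC in 10 (8.26%), against 7.36% and 8.14%. The median GC content of the windows was 62.0% for members and 61.7% for eligible genes. A match describes letters in a window, not binding.

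Several members act in cell signalling. Lgr5, a receptor for R-spondins that strengthens Wnt signalling, was counted at 5.15, 6.91, 5.75 and 3.71 CPM in WT at CT10, and at 9.39 to 20.4 CPM in the other 12 WT libraries. The KO libraries at CT10 held 11.5, 11.8, 11.5 and 14.7 CPM and those at other times 9.12 to 17, so the KO values overlapped fully. Among all genes expressed highly enough for the rule, 150 of 8368 were members, the share beside which the list counts below stand. Of the 33 genes in the list for dopamine, melatonin and cAMP, 15 were expressed highly enough and 3 were members. All 3 belong to the cAMP step. Drd4, a dopamine receptor gene, and Pde10a, a phosphodiesterase gene, were left out by name and could not become members. Prkar1b and Prkaca encode a regulatory and the catalytic alpha subunit of protein kinase A, and Pde8a encodes a phosphodiesterase that degrades cAMP. Prkar1b was low, at 7.87, 5.99, 7.50 and 7.97 CPM in WT at CT10 against 8.99 to 18.3 CPM in the other 12. Its described WT difference was -0.78, but -0.35 with the level of inner retina markers as a covariate and -0.15 with lens markers added.

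Prkaca differed little, with 74.6, 71.8, 65.0 and 75.3 CPM in the WT CT10 libraries against 78.8 to 94.2 CPM in the other 12. CT10 libraries of KO held 82.4 to 87.9 CPM and the others 77.8 to 97.7, so they overlapped. Pde8a held 124, 129, 143 and 104 CPM at WT CT10 and 153 to 214 CPM in the rest of WT. In KO it held 176, 186, 190 and 182 CPM at CT10 against 138 to 196, with a difference of 0.12 (SE 0.08). Pde8b, the closest relative of Pde8a, was also a member and is named here after its values were seen. It held 140, 160, 166 and 133 CPM in the WT CT10 libraries, 193 to 283 in the other WT libraries, and 202 to 243 CPM at CT10 in KO.

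Sik1, a salt-inducible kinase whose gene is a known target of CREB, was 1 of 2 members among the 13 expressed immediate early genes; several other genes of that list were left out by the rule. Its WT CT10 libraries held 11.2, 6.07, 6.43 and 9.64 CPM, and the other 12 held 13.4, 26.7 and 36.8 CPM as the lowest, median and highest. In KO the CT10 libraries held 21.8, 13, 13.7 and 17.8 CPM against 11.6, 23.7 and 32.9. The KO CT10 libraries lay in the lower part of the range of the others without leaving it. The KO difference of -0.45 (SE 0.20) was the lowest of all members, and it did not pass the test (edgeR adjusted p = 0.552). Dusp5, the other member, encodes a phosphatase that inactivates the kinase ERK. It held 27, 21.7, 25.3 and 25.9 CPM at WT CT10 and 34.6 to 58.4 CPM at the other times, with 31.4 to 45.2 CPM at CT10 and 32.2 to 49.8 CPM at the other times in KO. Sik3, a kinase of the same family as Sik1 and named after its values were seen, had a KO difference of 0.15 (SE 0.06), opposite in sign to that of Sik1; neither was called. Map3k10, a mixed-lineage kinase, held 54.2 to 58.1 CPM at WT CT10 against 73.5 to 82.5 CPM in the other WT libraries, and its KO difference was -0.14 (SE 0.07).

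Of 19 expressed core clock genes, 1 was a member, Nfil3 (ENSMUSG00000056749, chr13:52967209-52981073, minus strand). Cry2, Per2 and Bhlhe40, also known from the clock, were left out by name and could not become members. The WT means of Nfil3 were 29.1 ± 1.96 CPM at CT19, 25.1 ± 1.41 at CT22 and 24.5 ± 3.08 at CT1, with 16.4, 18.1, 17.3 and 20.3 CPM at CT10. In KO the CT10 libraries held 9.06, 6.66, 9.89 and 6.17 CPM and the others 6.70 to 16.3 CPM. Every KO library at CT10 lay below every WT library at CT10 for 572 of the 8368 genes and for 1 member, Nfil3. At CT10, 5 members had a lower KO than WT mean: Nfil3, Rnf113a1, Rnf113a2, Zcchc3 and Tpm4, of which all but Nfil3 are named after their values were seen. Rnf113a1 and Rnf113a2 are near-identical copies, so their counts are less certain.

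Other transcription factors among the members were E2f3, a cell cycle regulator, and Atf4, an activator in the integrated stress response and 1 of 22 expressed genes in the list for the unfolded protein response. E2f3 held 23.7, 20.5, 20.5 and 20.8 CPM at WT CT10 against 28.8 to 54.5 CPM in the other WT libraries. In KO it held 28.4 to 37.5 CPM at CT10 and 27.6 to 35.3 CPM at the other times. Atf4 held 252, 253, 263 and 257 CPM at WT CT10 and 273 to 413 CPM in the rest of WT, and 256 to 306 CPM at CT10 in KO against 246 to 359 CPM. Rax, a homeobox factor of retinal development, was a member although none of the 13 expressed genes in the photoreceptor transcription factor list was. No member was in the lists for rod phototransduction, cone phototransduction, outer segment and cilium, or ribosomal proteins. Rcvrn and Guca1b, both phototransduction genes, were left out by name and could not become members.

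Of 38 expressed genes for synaptic vesicles and release, 3 were members: Syn1 and Syngr1, which encode vesicle proteins, and Rab3a, a GTPase of vesicle docking. Syn1 held 9.05, 8.91, 8.10 and 9.26 CPM at WT CT10 against 10.5 to 19 CPM in the other WT libraries, and in KO 13.1 to 17.5 CPM at CT10 against 13.3 to 33.3 CPM. Rab3a held 121, 117, 118 and 137 CPM at WT CT10 against 146 to 216 CPM, and in KO 136 to 163 CPM at CT10 against 129 to 197 CPM. Syngr1 held 341 to 360 CPM at WT CT10 against 403 to 471 CPM, a 1.25-fold difference of means. Lrfn2, a postsynaptic adhesion protein, held 36.5, 33.5, 20.2 and 35.8 CPM at WT CT10 against 47.2 to 109 CPM. In KO it varied widely, from 26.2 to 53.6 CPM at CT10 and from 16.1 to 77.6 CPM at the other times. Lrfn2 was the only member in either the photoreceptor synapse list (25 expressed genes) or the synaptic adhesion list (29).

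Autophagy was the gene list with the most members, 4 of 23 expressed genes, against 150 of 8368 over all genes. Map1lc3a, Gabarapl1 and Gabarap encode proteins of the family that is coupled to autophagosome membranes, and Tecpr1 encodes a factor of autophagosome and lysosome fusion. Gabarapl1 held 209, 215, 219 and 235 CPM at WT CT10 against 261 to 418 CPM, and Gabarap held 46.3, 44.6, 45.9 and 43.0 CPM against 50.5 to 80.6 CPM. Map1lc3a held 17.1, 21.1, 17.8 and 21.4 CPM against 24.0 to 42.6 CPM, and Tecpr1 held 152 to 166 CPM against 180 to 210 CPM. In KO the differences at CT10 were -0.04, -0.0027 and -0.09 for Gabarapl1, Gabarap and Map1lc3a, and -0.09 for Tecpr1, with SEs of 0.09, 0.08, 0.12 and 0.07. All 4 overlapped between CT10 and the other KO times. Over the whole list the median CT10 difference was -0.131 in WT and 0.00334 in KO, against medians of 0.011 and -0.010 over the 8368 genes. This was not particular to autophagy. The lists for ribosomal proteins and heat shock chaperones, which held no member, had medians of -0.194 and -0.193 in WT and 0.099 and 0.022 in KO. The rod and cone phototransduction lists, also without a member, had WT medians of 0.032 and 0.016. Atg4d, which encodes a protease that processes the same protein family, was a member outside the list and is named after its values were seen; it held 36.2 to 39.8 CPM at WT CT10 against 43.0 to 64.1 CPM.

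Gas6, a ligand that bridges exposed phosphatidylserine to receptors on phagocytes, was the only member among 15 expressed genes in the list for phosphatidylserine exposure and phagocytosis. It held 239, 260, 232 and 227 CPM at WT CT10 against 280 to 326 CPM, a 1.24-fold difference. In KO it held 256 to 276 CPM at CT10 against 256 to 319 CPM, a difference of -0.12 (SE 0.07) that did not pass. Pmvk, a kinase of the mevalonate pathway, was the only member of 18 expressed cholesterol synthesis genes, at 20.9 to 21.6 CPM at WT CT10 against 22.6 to 37.9 CPM.

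Zdhhc5, a palmitoyltransferase gene among the 20 smallest ratios, held 448, 446, 475 and 423 CPM at WT CT10 against 590 to 956 CPM, and in KO 631 to 924 CPM at CT10 against 578 to 900 CPM. Ttyh1, a tweety-family membrane protein, held 161, 175, 159 and 184 CPM at WT CT10 against 222 to 427 CPM. In KO it held 280, 263, 284 and 306 CPM at CT10 against 283 to 331 CPM, with a difference of -0.15 (SE 0.06). The KO CT10 libraries of Ttyh1 reached into the lower end of the other times, and the difference was not called (edgeR adjusted p = 0.505). B3gat3, an enzyme that builds the linker of proteoglycans, held 18.7 to 21.8 CPM at WT CT10 against 29.2 to 43.4 CPM, and in KO 22.7 to 31.9 CPM against 23.9 to 37.8 CPM.

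Pcp4l1, a small relative of the calmodulin regulator PCP4, had the most scattered libraries. The WT CT10 libraries held 29.2, 4.66, 25.8 and 40.6 CPM, and the other 12 held 50.7 to 134 CPM. In KO the CT10 libraries held 61.8, 59.7, 156 and 64.4 CPM, and the others 30.1 to 154 CPM, so 1 KO library exceeded the other 3 by more than their whole spread. The remaining named members of the first 20 were Tmem256, Dnajb2, Lurap1, Slc35e4, Apbb1, Nadk and Abhd8. Their WT fold differences lay between 1.51-fold for Nadk, which makes NADP, and 2.62-fold for Tmem256. Dnajb2, a neuronal co-chaperone, held 86.9 to 96.0 CPM at WT CT10 against 122 to 177 CPM, and Apbb1, an adaptor of the amyloid precursor protein, held 142 to 167 CPM against 204 to 285 CPM. None of the 7 was called in KO. Tuba4a, an alpha-tubulin and the only member of 32 expressed cytoskeleton and axon genes, held 40.0 to 57.1 CPM at WT CT10 against 59.5 to 84.7 CPM, and its KO difference was 0.01 (SE 0.10).

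In KO, edgeR's test called none of the 150 members at CT10, and very few of all genes tested. CT10 was compared with the mean of the other 3 KO times in the 16 KO libraries with edgeR's quasi-likelihood test, adjusted over 17317 genes. At an adjusted p under 0.05, 0 genes were called lower (0% of those tested) and 10 higher (0.0577%), with 0 members in either direction; the lowest adjusted p of a member was 0.19. At an unadjusted p under 0.05, 11 members (7.33%) were lower, against a background of 3.52%, and 3 (2.0%) were higher, against 5.2%. The 11 included Sik1, Ttyh1 and Vps37b, a subunit of the ESCRT-I sorting complex, and the 3 included Dip2b. The F test for any difference among the 4 KO times called 0% of the genes and no member, and the lowest adjusted p of a member was 0.133, that of Prkar1b.

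The KO differences were small and their intervals mostly held 0. The fitted log2 differences of the members ran from -0.45 to 0.26 with a median of -0.07, against -0.01 over all genes tested, and the median SE was 0.08. For 136 of the 150, the 95% interval held 0, and the median bounds were -0.25 and 0.12. Ppp2r5b, a regulatory subunit of the phosphatase PP2A and the member of lowest p, had a difference of -0.26 (SE 0.07; edgeR adjusted p = 0.19). Its KO CT10 libraries held 61.5, 57.9, 61.4 and 63.5 CPM and the other 12 held 62.9 to 81.5 CPM, so only 1 CT10 library reached into the range of the others. DESeq2's Wald test called it (adjusted p = 0.0371), and no other member. Ppp2r5b is named after its values were seen.

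The rule's own criterion was met in KO by no member and by few of all genes. The highest KO CT10 library lay below the lowest of the other 12 KO libraries for 0 of the 150 members, against 33 of 8535 expressed protein-coding genes (0.387%). The opposite order was met by 0 members and by 2 genes (0.0234%). With TMM-scaled CPM, 1 member met the criterion, Ppp2r5b. Leaving out 1 KO library at a time gave at most 1 member: Dedd2 without CT10 replicate 2, Atf6b without CT10 replicate 4, and Ppp2r5b without CT10 replicate 5 or CT1 replicate 6. Nfil3 and Tpm4 averaged under 10 CPM in KO.

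The time of the lowest KO mean varied. The lowest KO mean was at CT1 for 79 members (52.7%, against 46.6% of all 8368 genes) and at CT10 for 53 (35.3%, against 25.7%). It was at CT22 for 11 (7.33%, against 6.02%) and at CT19 for 7 (4.67%, against 21.6%). The highest KO mean was at CT19 for 88 members, against 3227 of the 8368 genes. The simple difference of CT10 from the other times in KO was below 0 for 107 members (71.3%, against 53.4% of all genes), with a median of -0.060 against -0.010. In WT the members' median was -0.479, and 0.011 over all genes. The members are rich in G and C, as given below. With the median of genes of similar GC content taken from each gene, the KO difference was below 0 for 57 members, with a median of 0.017.

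**Figure D3:**
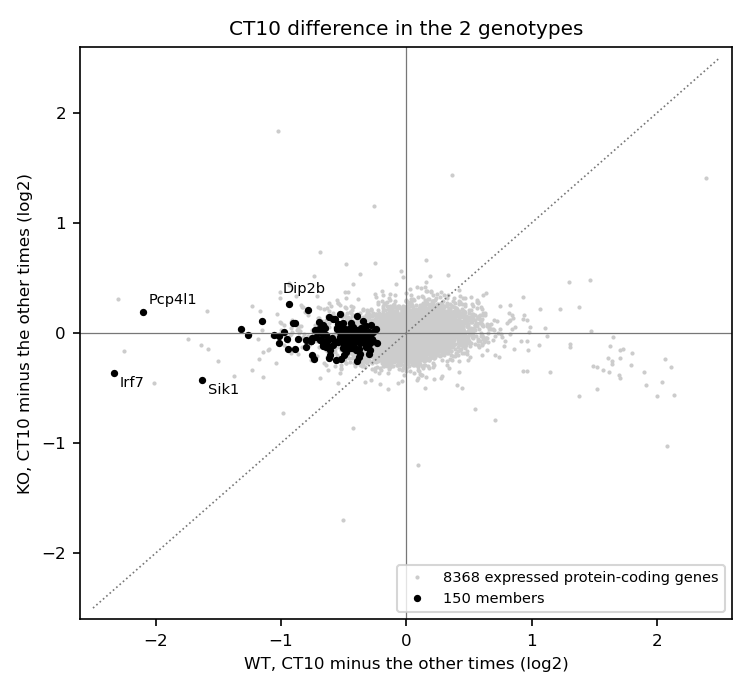
CT10 minus the mean of the other times in WT (horizontal) and KO (vertical), as differences of mean log2(CPM + 0.5), for 8368 expressed protein-coding genes (grey; 1 gene lies outside the axes) and the 150 members (black); the dotted line marks equal differences. The members lie left of 0 by the rule, and between -0.43 and 0.27 in KO.

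Compared with WT at the same time, KO levels of the members were higher at CT10 and slightly lower at the other times. The median log2 difference of KO from WT was 0.305 at CT10, against 0.008 over all genes. At CT10, 145 members had the higher mean in KO, against 4363 of the 8368 genes. The medians at CT19, CT22 and CT1 were -0.126, -0.090 and -0.134, against 0.032, 0.081 and 0.003 over all genes. At these times 28, 38 and 21 members were higher in KO, against 4793, 5883 and 4246 of the 8368 genes. Every KO library at CT10 lay above every WT library at CT10 for 96 members, and for 850 of the 8368 genes. The reverse order was seen for 21 members each at CT19 and CT22, and for 17 at CT1, and for 284, 139 and 238 of the 8368 genes at CT19, CT22 and CT1. Aqp1 was such a case of a KO level between the extremes of WT, 0.49 above WT at CT10 and 0.61 below it at CT19. These values share the libraries that chose the members and carry no test.

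**Figure D4:**
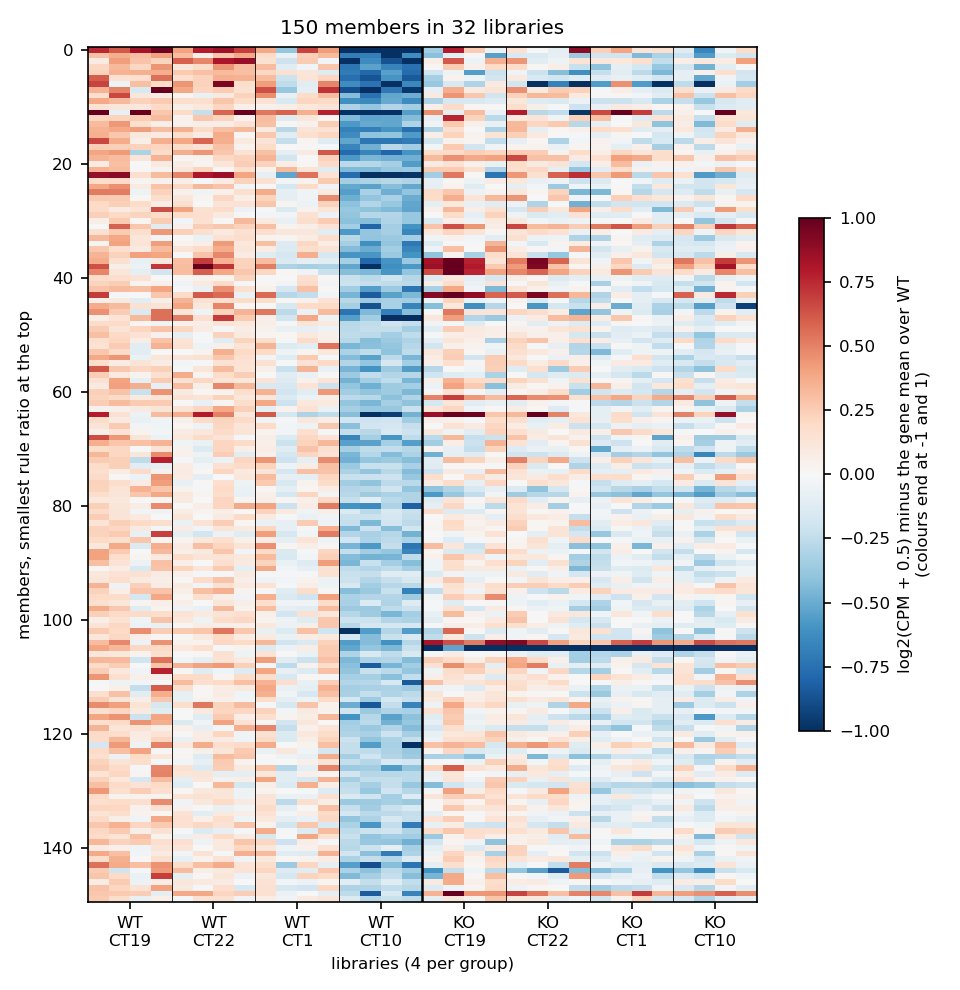
Log2(CPM + 0.5) of the 150 members (rows, smallest rule ratio at the top) in the 32 libraries (columns), each relative to the gene's mean over the 16 WT libraries; colours end at -1 and 1. The WT CT10 columns are blue throughout by the rule, and the KO columns are pale, with no block of blue at CT10; the dark row in KO is Nfil3.

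Markers of several other cell types of the eye were also lower in WT at CT10. No member was in the marker lists used here, which do not hold every gene of those cells. Summed Müller glia markers had a median of 704 CPM (563 to 1021) in WT at CT10, against medians of 902 to 1090 CPM at the other WT times and 964 to 1578 CPM in the KO groups. Bipolar markers had a median of 972 CPM (859 to 1134) at WT CT10 against 1026 to 1262 CPM, and amacrine markers 228 CPM (200.1 to 249) against 264 to 351 CPM. Of the markers expressed highly enough, 13 of 16 for bipolar cells, 8 of 8 for amacrine cells and 12 of 13 for Müller glia were lower at WT CT10, and 0 of 18 for lens. Pigment epithelium markers had a median of 205 CPM (179 to 215) at WT CT10, against 303 to 315 CPM at the other WT times and 204 to 232 CPM in the KO groups. Horizontal cell markers had a median of 116 CPM (83.7 to 142) against 141 to 196 CPM at the other WT times, ganglion cell markers 64.3 CPM (51.2 to 69.2) against 75.3 to 81.8 CPM, and vascular and blood markers 59.4 CPM (47.0 to 91.2) against 69.0 to 90.2 CPM. The expressed markers of these 4 types, 3 for pigment epithelium, 5 for horizontal cells, 1 for ganglion cells and 2 for vessels and blood, were all lower at WT CT10. Microglia and leukocyte markers were not, with a median of 18.2 CPM (16.7 to 25.5) at WT CT10 against 16.2 to 18.6 CPM at the other WT times. Their 1 expressed marker was higher at WT CT10, by 0.331 on the log2 scale. No marker was at 0 in all libraries, though Th, Slc18a3, Vip, Sst and Npy of amacrine cells, and Best1, Oca2, Krt8 and Cldn19 of the pigment epithelium, stayed under 1 CPM throughout. With the inner retina level (the mean log2 CPM of the bipolar, amacrine and Müller glia markers) as a covariate, the members' median WT difference was -0.49 instead of -0.47, and with the lens level added it was -0.58. All 150 members were below 0 in each case, with the values that chose them. The part of the pigment epithelium, horizontal, ganglion and vascular markers in the members' values was not tested.

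Within the KO libraries, 5 members (3.33%) followed the inner retina level by the edgeR slope test, against 4.67% of all genes tested; 5.1% of all genes and 0 members went the opposite way. The 5 were Eef1a2, a translation elongation factor of neurons, Cabp1, a calcium-binding protein, Diras2, a small GTPase, Prkar1b and Pmepa1. Only Prkar1b is named by the naming rule. Eef1a2 rose by 1.39 on the log2 scale (SE 0.13; edgeR adjusted p = 4.3e-05) for each unit of the inner retina level, and Cabp1 by 1.24 (SE 0.19; edgeR adjusted p = 0.00149). Diras2 rose by 1.002 (SE 0.17), Prkar1b by 0.84 (SE 0.19) and Pmepa1 by 0.67 (SE 0.19). In WT, the described CT10 difference of Eef1a2 went from -0.96 to -0.37 with the inner retina level as a covariate, that of Cabp1 from -1.09 to -0.45, and that of Prkar1b from -0.78 to -0.35. The difference of Pmepa1 was -0.69 without and -0.63 with the covariate. Without KO CT19 replicate 5, 131 genes in place of 808 rose, 3 of them members; without CT22 replicate 2 or 4, 276 or 472 genes rose.

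The members' transcripts were richer in G and C than those of other expressed genes. The longest annotated transcript had a median GC content of 55.2% for members and 49.7% for the 8362 eligible genes with a transcript, a median length of 2629 against 3405 bases, and the genes spanned a median of 17174 against 26336 bases. When the genes were divided by GC content into 5 equal bins, 3, 12, 24, 42 and 69 members fell in the bins from low to high. Over all expressed genes, the median CT10 difference went from 0.150 in the lowest bin to -0.133 in the highest in WT, and from 0.083 to -0.113 in KO. The gap of high-GC from low-GC genes was -0.290 to -0.125 in the WT CT10 libraries and -0.201 to -0.120 in the KO CT10 libraries. With the median of its GC bin taken from each gene, the members' median was -0.431 in WT, with all 150 below 0, and 0.017 in KO, with 57 below 0. The WT libraries had chosen the members, so the WT values after this step are a description too. On CPM corrected for the GC bin in each library, 119 of the 150 members still passed the rule, among 303 genes, and 0 members met it in KO.

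**Figure D5:**
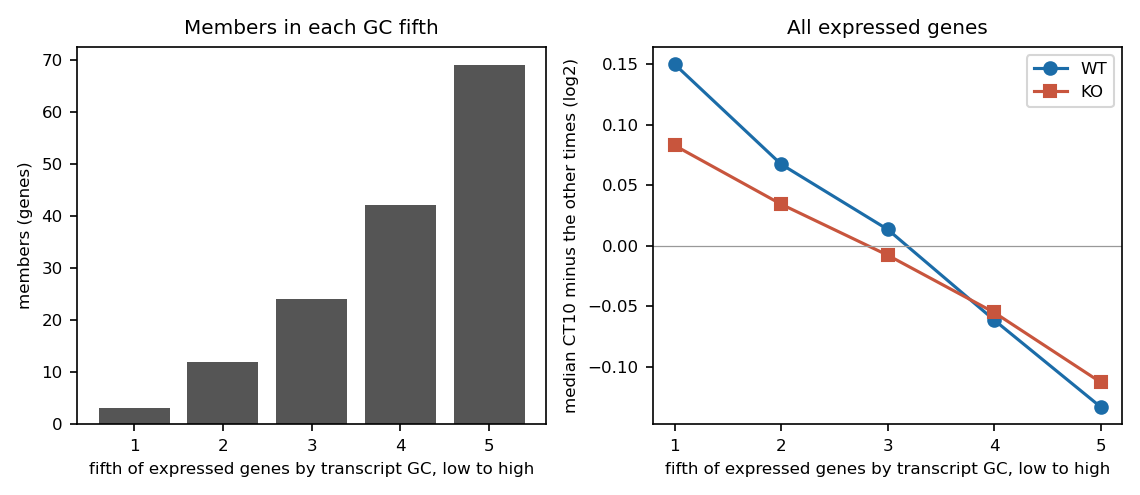
Left, number of members in each of 5 equal bins of the expressed genes by GC content of the longest transcript, from low to high. Right, median CT10 minus other times (log2) of all expressed genes in each bin, in WT and KO; the number of members goes from 3 to 69 across the bins, and both genotypes decline from above 0 to below 0.

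By position, 24 members (16%) lay on chromosome 11, against 8.51% of the 8368 genes, and no other chromosome held more than 13. Exons shared with an expressed gene on the opposite strand were found for 26 members, among them Irf7, Map3k10, Lurap1, Zdhhc5, Ttyh1, Syn1, Rab3a, Gabarapl1, Gas6, Tuba4a, Vps37b, Pde8b, Rax and Atg4d. Their counts may hold reads of the partner gene. Ergic1 shares exons with Dusp1, which the rule left out. The members' mean WT level ran from 10.8 to 1741 CPM with a median of 58.9, against 44.0 for all genes eligible; 3 members have provisional symbols.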

How the data were processed

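RNA-seq of 32 libraries was read from 1 table of raw read counts per Ensembl gene (54232 genes), as deposited by the authors. HTSeq 0.11, HISAT2 2.1.0, Trimmomatic 0.32 and Cufflinks on build GRCm38.p6 are named in the submitters' processing notes; the sources used here do not give their settings or strand. Groups came from the labels. Gene names, which matched 99.9% of identifiers, and transcripts came from the GENCODE annotation of GRCm38, and promoter windows from RefSeq.

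The members and gene lists were chosen with earlier results of these data known. CPM is the count over the column total. Tests used edgeR 4.0.16 in R 4.3.3 on the 16 KO libraries (filterByExpr, TMM, robust quasi-likelihood, 12 residual degrees of freedom, biological coefficient of variation 0.193), with Benjamini-Hochberg adjustment over 17317 genes and calls at 0.05. Contrasts were CT10 against the mean of the other times, any difference among times, and the slope on the inner retina level with time in the model. DESeq2 1.42.0 and limma 3.58.1 were alternatives. Differences called simple or described used log2(CPM + 0.5), except the WT differences given with or without marker levels as covariates. Those used edgeR's TMM-scaled log2 CPM. The procedure was tested on simulated counts. The p-values measure the spread between libraries, within a group at least 11.0 times sampling noise by chi-square per degree of freedom. The title of WT CT1 replicate 5 gives 2 animal numbers; it counted as 1 library.

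Named genes were the 20 members of smallest ratio, up to 4 members of each of 37 lists, the 3 on each side of the limit, and any called in KO; others are marked as named after their values were seen. Rax, Mlf2, Osbp2 and genes listed by name under a count were also chosen so.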

Additional observations from a re-analysis of the deposited data

Results flagged for a closer look

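For the 20 members of smallest ratio, the members' median level and the GC gap, 176 groups of 4 libraries were examined for a library whose gap to the nearest other exceeded Dixon's critical share of the group's range, and 15 were found; chance alone flags about 1 in 20 groups. In WT at CT19, replicate 1 was low for Dip2b at 143 CPM (the others at 155 to 158), replicate 2 was high for Dusp5 at 58.4 CPM (38.8 to 41.1), and replicate 3 was low for the members' median level at 0.077 (0.217 to 0.229). In WT at CT22, replicate 3 was high for Dnajb2 at 165 CPM. In WT at CT1, replicate 3 was low for Zdhhc5 at 590 CPM (762 to 794), and replicate 1 was high for Nadk at 33.7 CPM. In WT at CT10, replicate 1 stood apart for 3 members: high for Irf7 at 36.0 CPM and E2f3 at 23.7 CPM, and low for Abhd8 at 114 CPM.

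In KO at CT19, replicate 5 had a GC gap of 0.354, against 0.025 to 0.078 in the others. In KO at CT22, replicate 3 was low for Nadk at 28.2 CPM (30.2 to 30.4). Lgr5 was low in KO CT1 replicate 6 at 9.12 CPM and high in KO CT10 replicate 5 at 14.7 CPM. In KO at CT10, replicate 4 was high for Pcp4l1 at 156 CPM (59.7 to 64.4), and replicate 3 was low for Lurap1 at 13.1 CPM (16.5 to 17.1).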

How the results depend on the processing

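The WT rule passed 224 to 303 genes over other scalings and minimum levels and 256 to 409 with 1 library left out, 409 without CT10 replicate 4. Scaling changed the membership: 101 of the 150 members were among the 150 chosen with TMM, 106 with DESeq2 size factors and 90 on GC-corrected CPM. In KO, the non-overlap criterion was met by 1 member with TMM and by 0 to 1 with 1 library left out. The members called at CT10 were 0 in all alternatives but DESeq2's Wald test (1, Ppp2r5b, lower), and among the times 0 but for no filter on low counts and DESeq2's likelihood ratio test (1 each, Prkar1b). For CT10 against the other KO times, none of the 38 named members was called in any of up to 27 alternatives each.

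Counts over all genes moved more. Genes lower at CT10 in KO (0) became 1 with no filter, 2 with the inner retina level and 3 with the lens level too, 10 with DESeq2 and 2 with limma-voom. Genes higher (10) became 22, 35, 43, 60 and 20 in the same order, 0 at a mean KO CPM of 10 or more or with sets of sample numbers as a factor, and 1 with all 32 libraries in the fit. Genes called among the times (0) became 20 with no filter, 1 with all 32 libraries and 420 with DESeq2. With 1 library left out these counts ran from 0 to 2 lower, 0 to 33 higher and 0 to 2 among the times. The members at an unadjusted p under 0.05 ran from 4 (without CT10 replicate 3) to 17 (without CT19 replicate 2) lower, with 7 without CT22 replicate 1 and 6 without CT1 replicate 4, and from 1 (without CT10 replicate 4 or 5) to 5 (without CT22 replicate 1 or CT10 replicate 3) higher.

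For the slope on the inner retina level, rising genes (808) became 487 with bipolar markers only and 424 at a mean KO CPM of 10 or more, and falling genes (884) became 347 with library totals only, 176 and 579. Rising members (5) became 9 with library totals, and falling members (0) became 4 with Müller glia markers only. With 1 library left out the ranges were 131 to 883 rising, 6 to 983 falling, 3 to 7 rising members and 0 to 3 falling members, with both lowest gene counts without KO CT19 replicate 5. The cause of these shifts was not tested.

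Deviations from the group means correlated from -0.300 to 0.313 in the 16 pairs of same-numbered KO libraries, with a median of -0.065. The median was 0.028 for differently numbered pairs. The labels give these libraries no link but the number, and whether they share a batch was not tested. With the replicate block, 6 genes and 0 members were called among the times, 7 genes were higher and 0 lower at CT10, and the slope called 0 genes and 0 members either way.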
